A study of Mus musculus with 6 samples.

Results

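The 34 genes described here encode the machinery with which the liver burns fatty acids, together with PPARa, the nuclear receptor that drives much of it, and genes that PPARa is known to induce. They were taken by name from a list, and all 34 were found among the 37991 Ensembl gene IDs of the count table and were abundant enough to be tested. Livers came from males 12 weeks old, 3 of them C57BL/6J wild type (WT) and 3 of the same strain homozygous for loss of Zpbp2, labelled Zpbp2 KO. Both groups are of whole liver, no treatment is given for either, and the labels do not describe the mutation that removed Zpbp2. The series title names altered lipid metabolism in mice without Zpbp2, and the comparison asks whether RNA of fat-burning genes differs between the genotypes. The labels name single livers but give no diet, fasting state or time of collection.

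Fatty acids enter the hepatocyte through carriers, are bound by FABP1 and are activated to acyl-CoA. Long chains then cross into mitochondria as carnitine esters and are shortened there by rounds of dehydrogenation, hydration, a further dehydrogenation and thiolysis, with electrons passed on by the electron transfer flavoproteins. Peroxisomes shorten very long chains by a parallel set of enzymes, and in fasting the acetyl-CoA made in mitochondria is turned into ketone bodies for other organs. PPARa, which binds DNA with RXR at pairs of AGGTCA half-sites, is activated by fatty acids in fasting and raises most of these genes in mouse liver.

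The PPARa-RXR element was looked for in RefSeq promoter windows of build GRCm38.p6, which run from 250 bases before to 50 bases after a gene's start. Windows were found for 29 of the 34 genes, 31 in all. The motif AGGTCANAGGTCA, on either strand, was allowed 2 mismatches in its 12 defined letters. It was found in 6 of the 31 windows (19.4%) and in 3.86% of all 32851 windows, and with at most 1 mismatch in 2 of 31 (6.45%) and in 0.554% of all. These are counts of letters and not of bound sites. The 2 closest matches lay before Fabp1, the liver fatty acid binding protein, and Acot12, an acetyl-CoA thioesterase, and the 250 bases upstream of each start are printed to show them in place. The match is in capitals, and where it reads TGACCT or a near form first it lies on the opposite strand, as in Fabp1, Acot12, Cd36 and Etfa. Both windows are on the plus strand, at chr6:71199629-71199878 for Fabp1 and chr13:91741271-91741520 for Acot12.
Fabp1: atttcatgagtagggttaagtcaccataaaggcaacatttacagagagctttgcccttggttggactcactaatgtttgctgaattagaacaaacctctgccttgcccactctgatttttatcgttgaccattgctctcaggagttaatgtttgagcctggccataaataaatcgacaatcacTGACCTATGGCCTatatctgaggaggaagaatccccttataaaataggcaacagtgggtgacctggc
Acot12: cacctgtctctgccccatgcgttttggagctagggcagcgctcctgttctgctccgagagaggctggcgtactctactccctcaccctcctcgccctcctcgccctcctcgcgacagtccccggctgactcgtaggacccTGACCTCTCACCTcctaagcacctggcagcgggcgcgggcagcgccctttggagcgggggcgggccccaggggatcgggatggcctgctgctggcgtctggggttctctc
In Fabp1 the match runs from base -67 to base -55 of the start and in Acot12 from -110 to -98. The other 4 matches, each with 2 mismatches, were in Cd36, Echs1, Etfa and Slc25a20. Those in Cd36, Echs1 and Etfa lay before the start, and that in Slc25a20 lay after it, from base 7 to base 19:
Cd36: TGGCCTCTGACTT
Echs1: AGGTCACGGGTCC
Etfa: TTACCTTTGCCCT
Slc25a20: AGGTGAAAGGTCG

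Libraries held 37904891 to 52955687 counts. Values below are CPM, counts relative to library sizes scaled by TMM, a method that makes most genes equal on average. Zpbp2 had 4, 13 and 7 counts in the WT libraries and 0 in each Zpbp2 KO library, and a count of 0 allows up to 3. The 8 hepatocyte markers, albumin included, summed to 92946 to 102003 CPM in WT and 103667 to 109100 CPM in Zpbp2 KO livers. Every Zpbp2 KO sum thus lay above every WT sum, and most of each sum was albumin. Of these markers 7 had a log2 fold change above 0 and none was called. Tat lay below 0 (-0.43, unadjusted p = 0.0183 from edgeR), with overlap between the groups. The cause was not tested. WT replicate 1 stood apart by skeletal muscle RNA. It held 2069 counts of the actin gene Acta1, 1043 of Ckm, 1102 of Tnnt3, 783 of myoglobin (Mb), 441 of Myh4 and 16 of Actc1. In the other 5 libraries Actc1 had 0 to 10 counts and the other 5 muscle genes 0 to 4. The 6 genes summed to 104 CPM in WT replicate 1, to 0.236 and 0.299 CPM in the other WT livers and to 0.134 to 0.285 CPM in Zpbp2 KO livers. Endothelial and Kupffer cell markers were lowest in Zpbp2 KO replicate 2 (106 CPM each in sum), against 163 to 237 and 186 to 262 CPM in WT. The highest Zpbp2 KO sums, 266 and 341 CPM, lay above those of WT, so the groups overlapped. The median log2 fold change of the 5 erythroid markers was 1.21, with all 5 above 0, 2 of them at an unadjusted p below 0.05 and none called, and with overlap between the groups. Their sum was 154 to 227 CPM in WT and 170 to 359 CPM in Zpbp2 KO livers, and their part in the results was not tested. As oxidation genes are also active in muscle, values without WT replicate 1 are given beside some of the main results. In whole tissue, fewer cells of a type and less RNA per cell cannot be told apart.

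None of the 34 genes of fatty acid oxidation passed the test between Zpbp2 KO and WT livers. The quasi-likelihood test of edgeR called 0 of them at a Benjamini-Hochberg adjusted p below 0.05 over 14686 genes, against 0.0136% of all tested genes, 2 genes in all, both lower. DESeq2 called 0 of the 34, against 0.334% of all tested genes lower and 0.184% higher, and limma-voom called 0, against 0.0136% lower. At an unadjusted p below 0.05, 3 genes of the list were lower, namely Crat, Acsl1 and Hsd17b4, and 0 higher, against a background of 2.93% lower and 2.86% higher. The median log2 fold change over the 34 genes was -0.14, against 0.01 over all tested genes, and 24 of the 34 lay below 0, where 47.1% of all tested genes did. Without WT replicate 1 the median was -0.02 and 20 of 34 lay below 0, with 2 genes, Acsl1 and Crat, lower at an unadjusted p below 0.05 and 0 higher (background 3.47% and 2.81%). The count lower was also 2 without WT replicate 3 (background 2.09%). It was 6 without WT replicate 2 (background 2.08%) and 5 without Zpbp2 KO replicate 2 (2.58%). It was again 6 without Zpbp2 KO replicate 3, where 1 gene was higher, but there the background was 6.39% lower and 7.0% higher.

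The precision of these fits bounds what could have been missed. The 95% interval of the log2 fold change included 0 for 31 of the 34 genes, and for 31 it lay within a 2-fold change in either direction. In 8 genes every Zpbp2 KO liver lay below every WT liver (background 6.01%), and in 1, Echs1, every one lay above (5.56%). The 8 were Crat, Acsl1, Slc27a2, Hadha, Hadhb, Etfdh, Ehhadh and Hsd17b4. Without WT replicate 1 the count was 9 lower and 2 higher, but the background also grew, to 12.6% and 10.8%. Without WT replicate 2, the liver with the lowest value in 13 of the 34 genes, 16 were lower (8.63% of all tested genes).

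**Figure D1:**
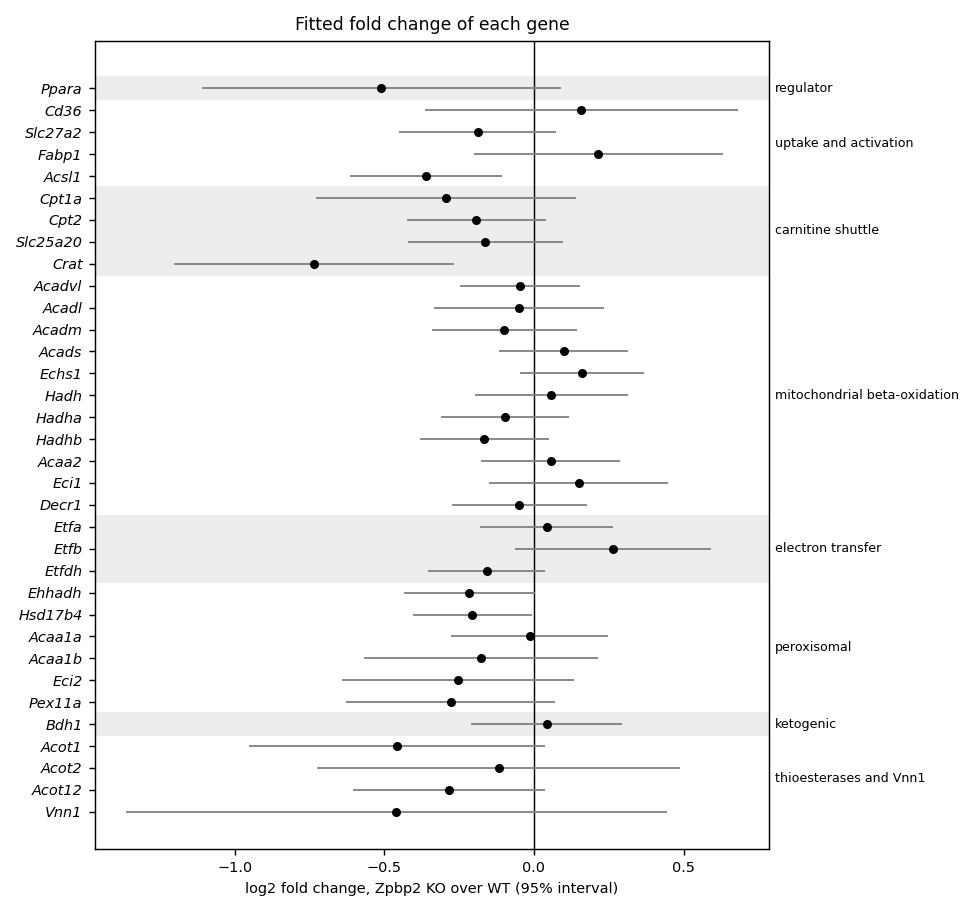
Fitted log2 fold change of each gene in Zpbp2 KO over WT livers (horizontal axis), with bars for the 95% interval from edgeR's fit over 3 livers of each genotype, grouped by step. The bars of Crat, Acsl1 and Hsd17b4 stay below 0, and those of the other 31 genes cross it.

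Levels spanned a wide range, and they are compared between genes as CPM per kilobase of transcript. Fabp1 led with 5953 CPM per kilobase in WT livers, followed by the peroxisomal thiolase gene Acaa1b (665), the mitochondrial thiolase gene Acaa2 (595), the fatty acid transporter and very long chain acyl-CoA synthetase gene Slc27a2 (439) and Acsl1 (313). The 11 genes of mitochondrial beta-oxidation lay between 62.8 (Decr1) and 595 (Acaa2) CPM per kilobase. Ppara itself stood at 33.3 CPM per kilobase, and the lowest were Acot1 (10.2), the fatty acid receptor gene Cd36 (6.30) and Acot2 (1.38). In Zpbp2 KO livers Fabp1 was again first (6910) and Acot2 last (1.26).

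**Figure D2:**
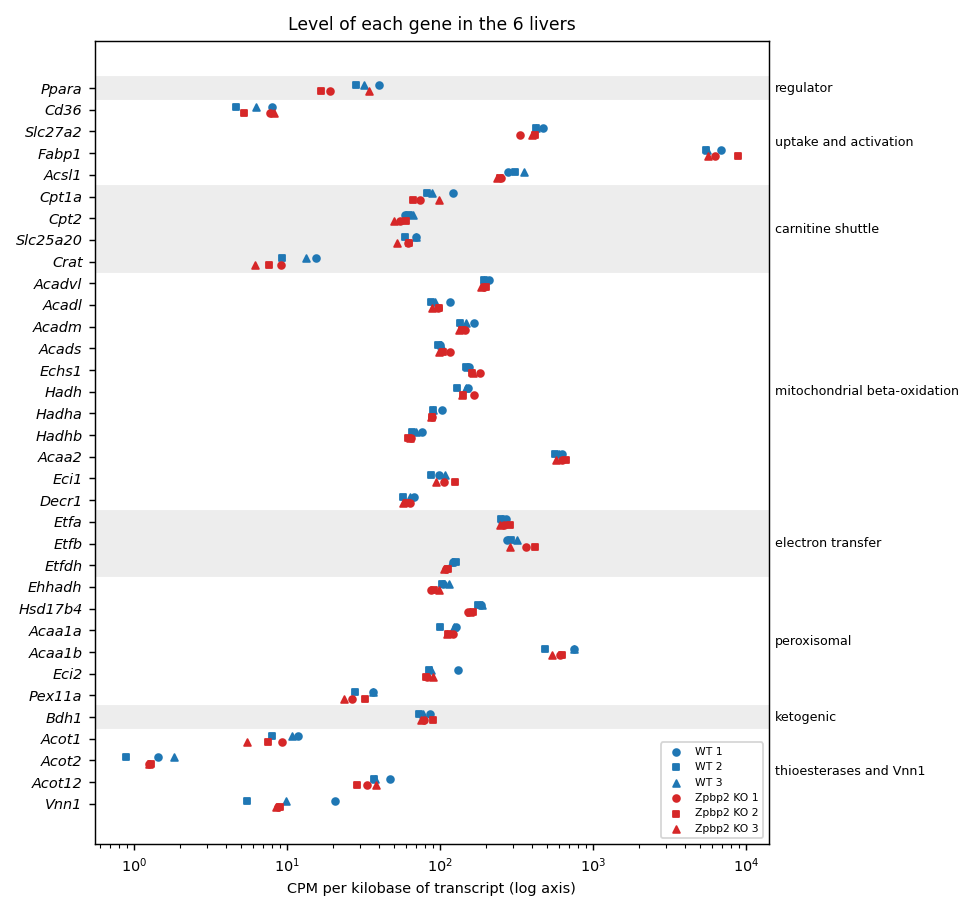
Level of each gene in each liver, in CPM per kilobase of transcript on a log axis, with WT livers in blue, Zpbp2 KO livers in red and 1 symbol per replicate. Fabp1 is the highest gene and Acot2 the lowest, and the livers of the 2 genotypes lie close together for most genes.

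Ppara (ENSMUSG00000022383) had 137, 96.4 and 108 CPM in the WT replicates, in order, and 65.6, 57.1 and 117 CPM in the Zpbp2 KO replicates. Zpbp2 KO replicates 1 and 2 lay below every WT liver, and replicate 3 lay among them. The log2 fold change was -0.51 ± 0.262 (SE), with an interval from -1.11 to 0.09 and an edgeR adjusted p of 0.798. Without Zpbp2 KO replicate 3 it was -0.89 (adjusted p = 0.278 from edgeR), and without Zpbp2 KO replicate 2 it was -0.32 (0.874). The log2 fold change of Ppara without WT replicate 1 was -0.36.

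At the entry of fatty acids, Acsl1 (ENSMUSG00000018796), the main long-chain acyl-CoA synthetase of liver, was lower in every Zpbp2 KO liver. WT replicates had 1086, 1204 and 1374 CPM and Zpbp2 KO replicates 976, 956 and 923 CPM, so that the groups did not overlap. The log2 fold change was -0.36 ± 0.111 (unadjusted p = 0.0111, adjusted p = 0.714 from edgeR) and, without WT replicate 1, -0.44. Slc27a2 had 1372, 1227 and 1245 CPM in WT and 979, 1226 and 1168 CPM in Zpbp2 KO livers. These groups only just failed to meet, as WT replicate 2 and Zpbp2 KO replicate 2 lay at almost the same level. Fabp1 had 3788, 3004 and 3084 CPM in WT and 3448, 4890 and 3126 CPM in Zpbp2 KO livers. Zpbp2 KO replicate 2 was high and the other livers overlapped, and the log2 fold change of 0.22 was -0.0025 without that liver. Cd36 had 27.2, 15.8 and 21.2 CPM in WT and 26.2, 17.7 and 27.8 CPM in Zpbp2 KO livers, with full overlap. Cd36 is also made by endothelial cells and macrophages, and among Zpbp2 KO livers it was lowest in replicate 2, the liver with the lowest endothelial and Kupffer cell markers. Their part in the Cd36 value was not tested.

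The carnitine shuttle, which carries acyl groups into mitochondria, was the step whose medians per liver lay farthest apart without overlap. Its median log2 fold change was -0.24, and -0.18 without WT replicate 1. Relative to the WT mean of each gene, on the log2 scale, the median of its 4 genes was 0.20, -0.19 and 0.07 in the WT replicates, in order, and -0.28, -0.31 and -0.33 in those of Zpbp2 KO. Taken singly, only Crat of these 4 genes was without overlap between the groups. The median of the 4 genes of uptake, binding and activation also did not overlap, narrowly, at 0.16, -0.09 and -0.01 in WT against -0.12, -0.15 and -0.10 in Zpbp2 KO livers. Crat (ENSMUSG00000026853), carnitine acetyltransferase, which exports surplus acetyl groups, had the largest fitted change of the 34 genes. It had 65.6, 39.5 and 56.1 CPM in WT and 38.4, 32.2 and 26.2 CPM in Zpbp2 KO livers, a mean of 53.7 ± 13.2 against 32.2 ± 6.10 CPM (SD, n = 3). Every Zpbp2 KO liver lay below every WT liver, although WT replicate 2 and Zpbp2 KO replicate 1 were close. The log2 fold change was -0.74 ± 0.204 (unadjusted p = 0.00651, adjusted p = 0.678 from edgeR), and the DESeq2 adjusted p was 0.0869. Muscle is rich in CRAT, and WT replicate 1, the liver with muscle RNA, had the highest value. The part of that RNA in the Crat value was not tested, and without that library the log2 fold change was -0.57.

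Cpt1a, the gated entry enzyme of the shuttle that malonyl-CoA inhibits, had 526, 357 and 382 CPM in WT and 321, 285 and 426 CPM in Zpbp2 KO livers. WT replicate 1 and Zpbp2 KO replicate 3 were the 2 highest and the groups overlapped, as for Ppara. The log2 fold change was -0.29 ± 0.190, and -0.10 without WT replicate 1. Cpt1b, the isoform of muscle mitochondria and not on the list, stood at 0.896 CPM in WT replicate 1, within the 0.766 to 1.05 CPM of the other WT livers. The inner membrane partner Cpt2 had 141, 148 and 157 CPM in WT and 130, 142 and 118 CPM in Zpbp2 KO livers, and the carrier Slc25a20 had 125, 106 and 124 against 110, 112 and 94.0 CPM. In both, Zpbp2 KO replicate 2 lay within the WT range, as did replicate 1 for Slc25a20. The log2 fold changes of Cpt2 and Slc25a20 were -0.19 and -0.16.

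Within the mitochondrial spiral itself the medians of the genotypes lay together, while single genes went in both directions. The 11 genes had a median log2 fold change of -0.05, from -0.17 (Hadhb) to 0.16 (Echs1), with 6 below 0 and 5 above. Without WT replicate 1 the median was 0.08, with 4 below 0. Per liver, their median relative to the WT mean was 0.10, -0.10 and -0.002 in WT and 0.02, -0.003 and -0.10 in Zpbp2 KO livers, so the Zpbp2 KO livers lay inside the range of WT. The chain-length series of acyl-CoA dehydrogenases, which take the first step, gave log2 fold changes of -0.05 for Acadvl (very long chains), -0.05 for Acadl (long), -0.10 for Acadm (medium) and 0.10 for Acads (short). Acadm had 339, 275 and 305 CPM in WT and 300, 284 and 274 CPM in Zpbp2 KO livers, and the groups overlapped.

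Some of the later enzymes of the spiral did not overlap, by small amounts. Of its 11 genes 2 were lower without overlap (background 6.01%) and 1 was higher (5.56%). Hadha and Hadhb encode the subunits of the trifunctional protein, which handles long chains at the inner membrane. Hadha had 413, 359 and 363 CPM in WT and 356, 354 and 352 CPM in Zpbp2 KO livers, and Hadhb had 157, 134 and 143 against 132, 126 and 129 CPM. Both were lower in each Zpbp2 KO liver, with log2 fold changes of -0.10 and -0.17, and both were highest in WT replicate 1. With each library left out, the log2 fold change ran from -0.14 to -0.03 for Hadha and from -0.22 to -0.11 for Hadhb. Echs1, the short-chain enoyl-CoA hydratase of the matrix, had 242, 231 and 235 CPM in WT and 283, 253 and 255 CPM in Zpbp2 KO livers, a log2 fold change of 0.16 in the other direction. Hadh (0.06), Acaa2 (0.06), Eci1 (0.15) and Decr1 (-0.05), the last a reductase needed for unsaturated chains, all overlapped. After offsets for transcript length and GC content Hadh, Acaa2 and Eci1 lay below 0, and Acadl, Hadh and Decr1 changed sign when single libraries were left out.

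Electron transfer showed no common direction. Etfb had 245, 260 and 285 CPM in WT and 323, 370 and 255 CPM in Zpbp2 KO livers, where replicates 1 and 2 were above WT and replicate 3 within it (log2 fold change 0.26 ± 0.143). Its partner subunit Etfa gave 0.04, with overlap, and was below 0 after length and GC offsets. Etfdh, the membrane oxidoreductase that passes the electrons to ubiquinone, had 287, 301 and 285 CPM in WT and 260, 269 and 253 CPM in Zpbp2 KO livers. All 3 Zpbp2 KO values were lower (-0.16 ± 0.0852, edgeR adjusted p = 0.798). Over the shuttle, the spiral and electron transfer together, 18 mitochondrial genes, the median was -0.05.

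The 6 peroxisomal genes all lay below 0, with a median of -0.21 and a range from -0.28 (Pex11a) to -0.01 (Acaa1a). Without WT replicate 1 the median was -0.14 and 5 lay below 0. Hsd17b4 (ENSMUSG00000024507), the D-bifunctional protein, had 499, 473 and 501 CPM in WT and 411, 441 and 424 CPM in Zpbp2 KO livers, a clear gap between the groups but a small one. Its log2 fold change was -0.21 ± 0.0871 (unadjusted p = 0.0443, adjusted p = 0.798 from edgeR). Ehhadh, the L-bifunctional protein and a classical PPARa target, had 313, 306 and 339 CPM in WT and 260, 271 and 294 CPM in Zpbp2 KO livers. It was likewise lower in every Zpbp2 KO liver, by -0.22 ± 0.0950 on the log2 scale (unadjusted p = 0.0519 from edgeR). Without WT replicate 1 these values were -0.19 for Hsd17b4 and -0.23 for Ehhadh.

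The other peroxisomal genes overlapped. Acaa1b had 1276, 825 and 1266 CPM in WT and 1020, 1052 and 904 CPM in Zpbp2 KO livers, with WT replicate 2 the lowest of all. Its close copy Acaa1a had 224, 176 and 216 CPM against 215, 200 and 196 CPM. Of the 100-base windows of the longest coding transcript, 22.6% of Acaa1b were shared with Acaa1a, so reads from those stretches may have been dropped or misassigned. Eci2, an isomerase found in both organelles, had 229 CPM in WT replicate 1, 147 and 152 CPM in the other WT livers and 141 to 157 CPM in Zpbp2 KO livers. Its log2 fold change of -0.25 thus came down to -0.02 without WT replicate 1. Pex11a, which divides peroxisomes, had 81.9, 62.5 and 81.5 CPM in WT and 60.0, 73.0 and 53.2 CPM in Zpbp2 KO livers.

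Set side by side in each liver, the peroxisomal and mitochondrial steps did not part by genotype. The median of the 6 peroxisomal genes relative to the WT mean was 0.13, -0.22 and 0.08 in WT and -0.25, -0.11 and -0.17 in Zpbp2 KO livers. That of the 18 mitochondrial genes was 0.08, -0.09 and 8.5e-05 in WT and -0.02, -0.02 and -0.10 in Zpbp2 KO livers. The peroxisomal minus the mitochondrial median was 0.05, -0.13 and 0.08 in WT and -0.24, -0.09 and -0.07 in Zpbp2 KO livers, with WT replicate 2 among the Zpbp2 KO values. For all 34 genes the median was 0.12, -0.13 and 0.008 in WT livers, a spread that contained the -0.09, -0.06 and -0.11 of the Zpbp2 KO livers. The distance between WT replicates 1 and 2 thus exceeded that between the genotypes.

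**Figure D3:**
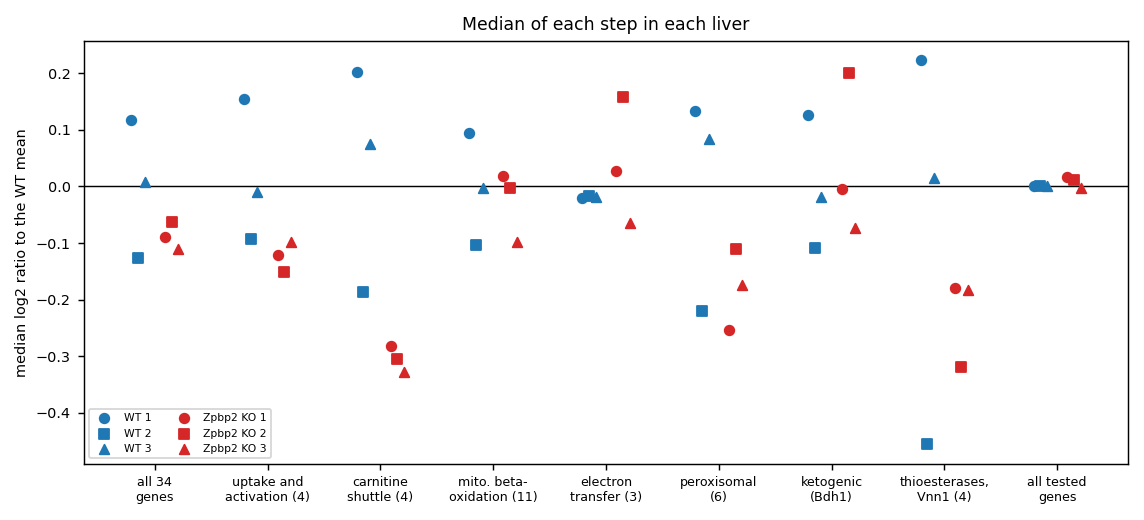
Median log2 ratio of each step's genes to their WT mean, in each liver, with WT in blue, Zpbp2 KO in red, 1 symbol per replicate and the number of genes in brackets. Zpbp2 KO livers lie below all WT livers for the carnitine shuttle, just below them for uptake and activation, and among or across the WT livers for the other steps.

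Ketogenesis was represented on the list by Bdh1, the dehydrogenase that makes beta-hydroxybutyrate. It had 268, 228 and 242 CPM in WT and 245, 282 and 233 CPM in Zpbp2 KO livers, and the groups overlapped, with a log2 fold change of 0.04 ± 0.111 (interval from -0.21 to 0.30), which was -0.04 without Zpbp2 KO replicate 2. Acat1, a mitochondrial acetoacetyl-CoA thiolase from the wider pathway list, had 406, 397 and 409 CPM in WT livers against 444.4, 453 and 363 CPM for Zpbp2 KO, which overlapped (log2 fold change 0.06 ± 0.109). Oxct1, which burns ketone bodies outside the liver, was highest in WT replicate 1 at 7.57 CPM, the liver with muscle RNA, against 3.13 to 5.15 CPM elsewhere.

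Thioesterases release free fatty acids or acetate from CoA, and Vnn1 makes pantothenate from pantetheine. All 4 genes of this group had log2 fold changes below 0, and their groups overlapped. Their median of -0.37 was -0.12 without WT replicate 1, with 3 below 0. Acot1, cytosolic and strongly induced by PPARa, had 26.6, 18.04 and 24.6 CPM in WT and 21.1, 17.0 and 12.4 CPM in Zpbp2 KO livers (-0.46 ± 0.216, unadjusted p = 0.0661 from edgeR). Its mitochondrial copy Acot2 was low, at 3.15, 1.94 and 3.98 CPM in WT and 2.76, 2.83 and 2.74 CPM in Zpbp2 KO livers. Acot1 shared 16.5% of its 100-base windows with Acot2, which makes both values less certain. Acot12 had 144, 113 and 116 CPM in WT and 102, 87.5 and 117 CPM in Zpbp2 KO livers, where replicate 3 again lay with WT.

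Vnn1, a sensitive PPARa target, varied most among WT livers. It had 50.03, 13.3 and 23.8 CPM in the WT replicates, in order, against 21.1, 21.6 and 20.6 CPM for Zpbp2 KO. WT replicates 1 and 2 were thus the highest and the lowest of all 6 livers, with the Zpbp2 KO livers between them. The coefficient of variation was 65.1% among WT and 2.28% among Zpbp2 KO livers. The log2 fold change of -0.46 ± 0.394 became 0.19 without WT replicate 1. More widely, WT replicate 1 had the highest value of the 6 livers in 18 of the 34 genes, against 17.0% of all tested genes, and WT replicate 2 the lowest in 13, against 15.1%. Zpbp2 KO replicate 3 was lowest in 12 (16.4% of all tested genes). WT replicate 1 is also the liver with muscle RNA. The part of that RNA in these values was not tested.

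**Figure D4:**
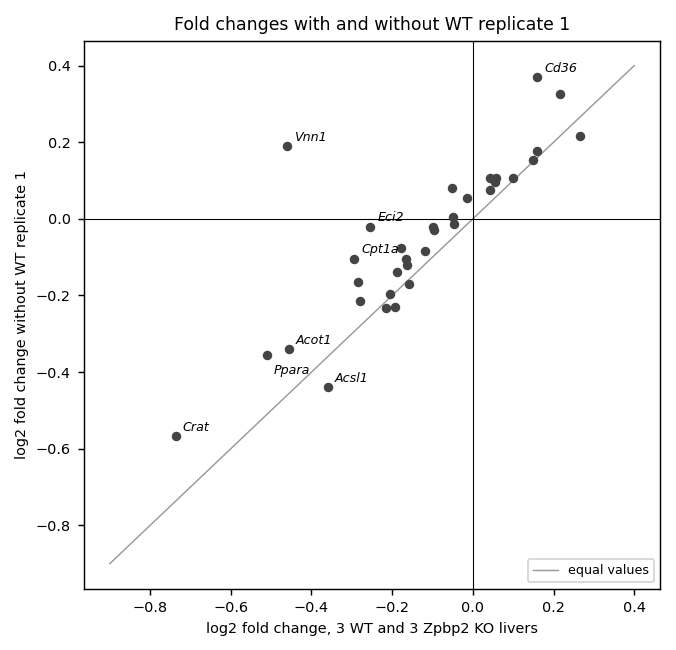
Log2 fold change of the 34 genes from all 6 livers (horizontal axis) and from 5 livers without WT replicate 1 (vertical axis), with a line of equal values. Most points lie above the line, Vnn1 moves from -0.46 to 0.19, Eci2 from -0.25 to -0.02, and Crat and Acsl1 lie lowest on the vertical axis at -0.57 and -0.44.

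Other genes of the pathway, from a list of 129 of which 125 were tested, gave 0 calls by edgeR and 0 by limma-voom, but at an unadjusted p below 0.05 there were 9 lower genes and 6 higher ones. The background for these was 2.93% lower and 2.86% higher, and the median of the list was 0.006. Without WT replicate 2 the counts were 16 lower and 3 higher (background 2.08% and 1.88%), and without Zpbp2 KO replicate 3 they were 10 lower and 14 higher (6.39% and 7.0%). The number higher was 3 without WT replicate 1 (2.81%), without WT replicate 3 (1.7%) and without Zpbp2 KO replicate 1 (2.39%). Within the list, 24 PPARa targets outside the pathway were tested, with a median log2 fold change of -0.20. Below 0 lay 17 of these 24, against 47.1% of all tested genes. At an unadjusted p below 0.05, 3 were lower and 0 higher. Per liver, their median relative to the WT mean was 0.01, -0.19 and 0.05 in WT. It was -0.10, -0.11 and -0.25 in Zpbp2 KO livers, so the groups overlapped. Over the whole list, DESeq2 called 2 of the 125 genes, Pdk4 lower and Lpin1 higher, against 0.334% of all tested genes lower and 0.184% higher. Pdk4, a fasting-induced PPARa target that spares glucose by blocking pyruvate dehydrogenase, had 12.9, 13.5 and 21.5 CPM in WT and 6.36, 6.25 and 4.02 CPM in Zpbp2 KO livers. The groups were far apart (-1.53 ± 0.253, adjusted p = 0.287 from edgeR). Lpin1, a phosphatidate phosphatase that also acts as a coactivator of PPARa, had 87.5, 43.5 and 50.8 CPM in WT and 83.8, 161 and 179 CPM in Zpbp2 KO livers, and the groups overlapped (1.22 ± 0.330).

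The 6 further carnitine genes lay on both sides of 0, with 2 below it, 4 above and a median of 0.10. The lowest of them, Slc22a5, the carnitine importer of the plasma membrane, had 30.3, 19.1 and 25.6 CPM in WT and 16.0, 12.5 and 16.7 CPM in Zpbp2 KO livers (-0.73 ± 0.188, unadjusted p = 0.00432 from edgeR). Every Zpbp2 KO liver lay below WT, as for Crat. The edgeR adjusted p of Slc22a5 was 0.659. Its highest value was in WT replicate 1, and without that library its log2 fold change was -0.57. In peroxisomes, the carnitine octanoyltransferase gene Crot (-0.35 ± 0.133) and Abcd3, which imports acyl-CoA (-0.31 ± 0.115), were lower without overlap. Acad11, an acyl-CoA dehydrogenase placed with mitochondrial beta-oxidation here, gave -0.31 ± 0.116, also without overlap, whereas of the 17 further genes of that step 5 lay below 0 and 12 above, with a median of 0.06.

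Other peroxisomal genes were higher, namely the reductase gene Pecr (0.23 ± 0.101), the import factor gene Pex26 (0.34 ± 0.122) and the membrane channel gene Pxmp2 (0.34 ± 0.119). Of the 39 further peroxisomal genes tested, 20 lay below 0 and 19 above, with a median of -0.01. The mitochondrial genes Echdc2 (0.31 ± 0.131) and Echdc3 (0.27 ± 0.104) were also higher, and the PPARa coregulator genes Sirt1 (-0.40 ± 0.128) and Nrip1 (-0.46 ± 0.138) lower, each without overlap. The fatty acid omega-hydroxylase genes Cyp4a31 (-0.90 ± 0.255) and Cyp4a32 (-0.83 ± 0.337), members of a family of close copies, completed those at an unadjusted p below 0.05. Cyp4a32 depended on single livers. Its log2 fold change was -0.38 without WT replicate 3 (unadjusted p = 0.174 from edgeR) and -0.60 without Zpbp2 KO replicate 2 (0.117). Nrip1 came to -0.30 with length and GC offsets (unadjusted p = 0.0538 from edgeR), and to -0.31 with the replicate block added (0.0826). In the main edgeR fit, all of the genes at an unadjusted p below 0.05 missed the adjusted threshold, while DESeq2 called Pdk4 and Lpin1.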

How the data were processed

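RNA-seq counts of 6 livers were used, and 1 library was made per liver. The authors deposited raw counts per Ensembl gene. STAR, Picard and HTSeq and the build mm9 are named per the submitters' processing notes, and the sources used here give no versions, annotation or strand setting. Symbols came from GENCODE M21 for 32919 of 37991 IDs. Genes were kept by filterByExpr (minimum count 10), scaled by TMM and tested with edgeR 4.0.16 (quasi-likelihood F-test, two-sided, no covariate, Benjamini-Hochberg over 14686 genes). SE and intervals are those implied by that test. Level per kilobase used each gene's longest coding GENCODE transcript. The fit was tested on simulated data. DESeq2 1.42.0 and limma-voom 3.58.1 were alternatives, with other scalings, filters and length and GC offsets. A limit of 3 counts for a count of 0 covers counting error only, as PCR copies were not told apart.

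The members and lists were chosen with earlier results of these data known, so no test over a list is given. Named in full were genes with an unadjusted p below 0.05 or without overlap, Ppara, Cpt1a, Bdh1, the near-identical pairs and Acat1, and other genes were chosen after their values were seen. Some genes that this rule names are not reported here. No coordinates are taken from mm9. Promoter windows are from RefSeq on GRCm38.p6. Of the pathway list, 1 gene was not matched and is not analysed here. Replicate numbers do not pair the livers.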

Additional observations from a re-analysis of the deposited data

How the results depend on the processing

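No gene of the 34 was called under any of the 16 alternatives, and the lowest adjusted p among them was 0.0869 (Crat, DESeq2). The count of genes called over the whole table, 2, was 76 with DESeq2, 12 with no filter and 2 to 4 with each library left out. The count for the other pathway genes, 0, was 2 with DESeq2 (Pdk4 and Lpin1) and 1 with no filter (Pdk4). With length and GC offsets 9 of the 34 genes were lower at an unadjusted p below 0.05, against 3, and 29 lay below 0, against 24, while 2.72% of all tested genes were lower at that p; the cause was not tested. With library totals 6 were lower (3.53% of all tested genes).

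The median log2 fold change of the 34 genes, -0.14, ran from -0.18 to -0.025 with each library left out, the last without WT replicate 1, and was -0.15 to -0.17 with other scalings. The mitochondrial median ran from -0.12 to -0.004 and the peroxisomal one from -0.30 to -0.14 in the same way. With Eci2 counted as mitochondrial they were -0.05 and -0.21.

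Among the 34 genes, 12 changed sign somewhere; the cause was not tested. With each library left out, the log2 fold change ran from -0.019 to 0.37 for Cd36, from -0.0025 to 0.34 for Fabp1, from -0.13 to 0.082 for Acadl, from -0.028 to 0.11 for Hadh, from -0.11 to 0.0059 for Decr1, from -0.019 to 0.093 for Etfa, from -0.11 to 0.054 for Acaa1a, from -0.042 to 0.11 for Bdh1, from -0.36 to 0.11 for Acot2 and from -0.81 to 0.19 for Vnn1. With length and GC offsets it was -0.0013 for Fabp1, -0.017 for Hadh, -0.051 for Acaa2, -0.0083 for Eci1 and -0.054 for Etfa, and with the replicate block and these offsets together -0.0069, -0.018, -0.050, -0.0093 and -0.054.

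Livers with the same replicate number did not deviate together (correlations of 0.14, 0.20 and -0.24 for numbers 1 to 3), so the number is not taken as a pairing. With the replicate block alone 2 genes were called over the whole table, 0 of the 34 and 0 of the other pathway genes, and the medians were -0.12 for the 34 genes, -0.05 for the mitochondrial and -0.21 for the peroxisomal ones. Acot2, at 1.94 to 3.98 CPM, rests on the fewest reads.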
